A study of Danio rerio with 8 samples.

Results

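The unlesioned albino zebrafish (Danio rerio) retina was profiled on 4 Affymetrix zebrafish arrays, the control replicates of a series of 8 arrays. The control fish were adapted to darkness and then put back into normal lighting. The other arrays of the series came from retinas exposed to constant bright light and were not analysed here. The RNA came from whole retina, and no source used here states the albino allele, the strain, the age or sex of the fish, or how many fish stand behind an array. Nothing says that the 4 replicates came from separate fish, so each SD measures only the spread between these arrays, which may be technical. All non-control probe sets, 15502 in number, were ranked by their mean RMA value on the log2 scale over the 4 arrays, and 8793 genes were each read from their brightest probe set.

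The vertebrate retina holds rods and cones that detect light, bipolar, horizontal and amacrine cells that relay and shape the signal, ganglion cells that send it to the brain, and Müller glia that span the tissue. In photoreceptors, light-activated opsin switches on the G protein transducin, which releases the inhibitory subunits of phosphodiesterase 6, and the enzyme then lowers cyclic GMP and closes cation channels. The zebrafish retina is rich in cones of several colour classes, and many zebrafish genes exist as a and b copies left by a genome duplication of teleost fish.

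Probe sets differ in how well they bind their transcript, so the order of genes below is an order of array signal and not of transcript number. A scale for this effect comes from the 1192 genes read by exactly 2 probe sets, whose probe sets differed by a median of 0.88 on the log2 scale. In bulk RNA, fewer cells of a type and less RNA per cell cannot be told apart. The background level was set at 7.08, the highest control mean among bacterial probe sets taken as unspiked. That status was read from the values. A bacterial gene with a probe set above the median of all probe sets was taken as spiked and left out. By that level 63.3% of the probe sets and 71.5% of the genes were above background, and the median over all genes was 8.08. The hybridisation controls, added in rising amounts, read in that order on all arrays, with bioB at a mean of 7.16, bioC at 9.71, bioD at 11.28 and cre at 13.22, so that the faintest of them lay barely above the background level.

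The 4 arrays had medians between 7.63 and 7.69 and correlated across probe sets with Pearson's r between 0.992 and 0.998, a description over probe sets that are not independent replicates. Replicates 1 and 3 were the pair farthest apart. On replicate 3 the unspiked bacterial probe sets averaged 6.55, against 6.31, 6.37 and 6.41 on replicates 1, 2 and 4, and the 3′ minus 5′ difference of the GAPDH control, a sign of RNA quality or labelling, was 0.08 on replicate 3 and between 0.03 and 0.04 on the others. The part of these differences in the results below was not tested, and values without each array are given where they matter.

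Genes of photoreceptors were many among the brightest. Their lists held 22 cone, 11 rod and 23 shared genes among 8793, and were chosen with earlier results of these data known. Their count among the brightest is therefore not independent of that choice. Of the 30 genes of highest mean with a full gene symbol, 14 belonged to the lists of photoreceptor genes: rbp4l, pde6ha, pde6hb, gnat1, gngt2b, ckbb, opn1sw2, opn1lw1, gngt1, opn1sw1, opn1mw2, gnat2, opn1mw4 and pde6c. The rest of the 30 included genes of energy metabolism, translation, iron storage, synaptic release and the visual cycle. A gene with only a provisional symbol, zgc:193593, averaged 13.76 and was left out of the 30, and 15 of the brightest 100 probe sets had no single gene symbol and were not named.

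First in the order was COX1, the mitochondrially encoded subunit of cytochrome c oxidase, with 14.88, 14.89, 14.88 and 14.81 in control replicates 1 to 4. Its 3 probe sets averaged 14.86, 14.54 and 14.37, so all of them were brighter than the last of the 30, ubb, at 13.70. Next came rbp4l, a retinol binding protein gene, with 14.75, 14.80, 14.77 and 14.81. COX1 lay above rbp4l on every array, and rbp4l above every other gene on every array.

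The inhibitory cone phosphodiesterase subunits followed, with pde6ha at 14.64, 14.61, 14.60 and 14.53 and pde6hb at 14.53, 14.50, 14.46 and 14.51. The rod transducin alpha subunit gnat1 had 14.48, 14.52, 14.46 and 14.50. These formed a block of 6 genes, together with the cone transducin gamma subunit gngt2b, the brain-type creatine kinase ckbb and the blue cone opsin opn1sw2, in which each gene overlapped the next over the 4 arrays. All 6 averaged between 14.48 and 14.59.

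A second block of 7 genes averaged between 14.18 and 14.36 and ran from the red cone opsin opn1lw1 through gatd3l, the rod transducin gamma subunit gngt1, the ultraviolet cone opsin opn1sw1, the glycolytic enzyme gapdhs and the green cone opsin opn1mw2 to the cone transducin alpha subunit gnat2. The ferritin heavy chain fth1a and ppdpfa made a block of 2 at 14.07. The last 13 genes ran from cldng at 13.96 to ubb at 13.70 with every neighbour overlapping. In all, 24 of the 29 neighbouring genes overlapped over the arrays and 5 did not. The SD of the 30 genes had a median of 0.04, and 26 of them were among the brightest 30 such genes on each of the 4 arrays.

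**Figure D1:**
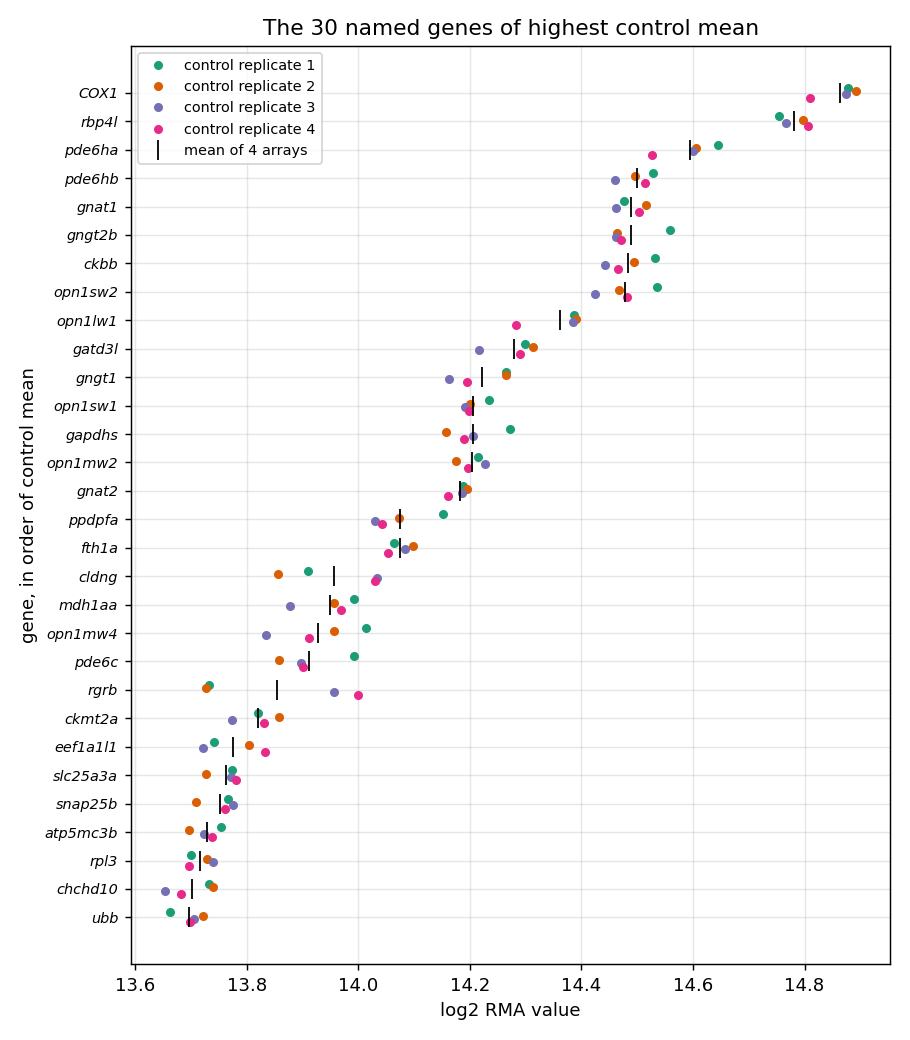
The 30 named genes of highest mean, from top to bottom, with the RMA value (log2) of each control array on the x axis as a coloured point and the mean of the 4 arrays as a black tick. The span from COX1 to ubb is 14.86 to 13.70, and most neighbours overlap; rgrb is the gene with the widest spread, with replicates 3 and 4 above replicates 1 and 2.

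Of these 30, rgrb spread most. It encodes an RGR opsin, related to the opsin of pigment epithelium and Müller glia that isomerises retinoid, and had 13.73, 13.73, 13.96 and 14.00, an SD of 0.14. Its values fell into 2 pairs of arrays with a gap between them. The claudin cldng, a tight junction gene, rests on 1 of its 4 probe sets: that one averaged 13.96, and the others 12.03, 10.61 and 7.42, so its place in the order is uncertain.

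Of the brightest 100 of 8793 genes, provisional symbols included, 17 belonged to the photoreceptor lists. They were 12 of 22 measured cone genes, 2 of 11 rod genes and 3 of 23 genes shared by both. The cytosolic ribosomal proteins contributed 26 of 75 and the respiratory chain with ATP synthase 10 of 97. COX1 was not matched by the symbol pattern of that list and was counted in no list. Glycolysis contributed 5 of 27 and Müller glia 3 of 36, with aldocb counted in both. Synapse and translation elongation contributed 3 each, of 14 and 17. None came from the bipolar, horizontal, amacrine or ganglion lists, and 30 stood in no list. The lists of these inner retinal neurons held few measured genes beside 8793, so their absence from the brightest 100 is not a result about these cells. Of the 100, 94 were among the brightest 100 on every array.

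The photoreceptor lists stood far above the array as a whole. Of 22 measured cone genes, 22 were above background and 17 were in the top 5% of genes, against 71.5% and 5% of all genes. Their median was 13.68, which is 5.60 ± 0.04 above that of all genes (SD over 4 arrays). Of 11 measured rod genes, 11 were above background and 7 in the top 5%, with a median of 12.74 and a distance of 4.66 ± 0.10 from all genes. The cone median was 0.94 above the rod median, a distance that depends on which genes were measured: 22 of 40 listed cone genes and 11 of 26 listed rod genes had a named probe set. Rhodopsin itself, the arrestins and the opsin kinases were not analysed here.

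All 6 measured cone opsins were among the bright genes. The blue opsin opn1sw2 led with 14.54, 14.47, 14.43 and 14.48, and the red opsin opn1lw1 had 14.39, 14.39, 14.38 and 14.28. The ultraviolet opsin opn1sw1 had 14.23, 14.20, 14.19 and 14.20. Among the green opsins, opn1mw2 had 14.21, 14.17, 14.23 and 14.20, opn1mw4 had 14.01, 13.96, 13.83 and 13.91, and opn1mw1 had 13.42, 13.41, 13.48 and 13.51. The order opn1mw2, opn1mw4, opn1mw1 held on all 4 arrays, with opn1mw2 above opn1mw1 by 0.75 ± 0.05. That distance is smaller than the median distance between 2 probe sets of 1 gene.

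Transducin, the G protein that opsin activates, has alpha, beta and gamma subunits. The rod alpha subunit gnat1 averaged 14.49 and the cone alpha subunit gnat2 14.18, a difference of 0.31 ± 0.03. Each has a second, dimmer probe set, at 13.02 for gnat1 and 12.41 for gnat2, so the difference is smaller than that between probe sets of either gene. Among the gamma subunits, cone gngt2b averaged 14.49, rod gngt1 14.22 and cone gngt2a 12.94. The beta subunits gnb1b at 13.14, gnb1a at 12.80 and gnb3b at 12.65 lay below gngt1, and gnb1a and gnb3b overlapped over the arrays.

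The catalytic cone phosphodiesterase subunit pde6c, at 13.91 ± 0.06, was below the inhibitory cone subunits. The distance is smaller than the median of 0.88 between 2 probe sets of 1 gene. The catalytic rod subunit pde6a averaged 13.06 ± 0.16, and no inhibitory rod subunit had a named probe set. The guanylate cyclases, which restore cyclic GMP, were spread widely, with gucy2f at 12.05, gucy2d at 10.98 and gc2 at 9.0. A second probe set read 9.46 for gucy2f, below gucy2d, and another 8.22 for gc2. The order of gucy2f and gucy2d therefore depends on the probe set read. Their activators guca1c at 12.84 and guca1b at 12.61 were near each other, and guca1aa was far below them at 9.11 ± 0.31. The guca1aa values of 9.37, 9.36, 8.73 and 8.98 were higher on replicates 1 and 2 than on replicates 3 and 4.

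Among the photoreceptor transcription factors crx, a homeobox activator of photoreceptor genes, had 11.95, 12.02, 11.89 and 11.91, and the rod nuclear receptor nr2e3 averaged 10.86. The dimmest cone gene was thrb, the thyroid hormone receptor needed for red cones in zebrafish, at 7.80 ± 0.14, which is above the background level but below the median of all genes. The list shared by both photoreceptor classes had a median of 11.68. It held 21 of 23 genes above background, against 71.5% of all genes, and its dimmest was rgs9b at 6.10. It was led by ckbb at 14.48, the phosducin pdcb at 13.69, the synaptotagmin syt5a at 13.56 and pdca at 13.10. The other probe sets of pdca averaged 12.38 and 10.32.

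**Figure D2:**
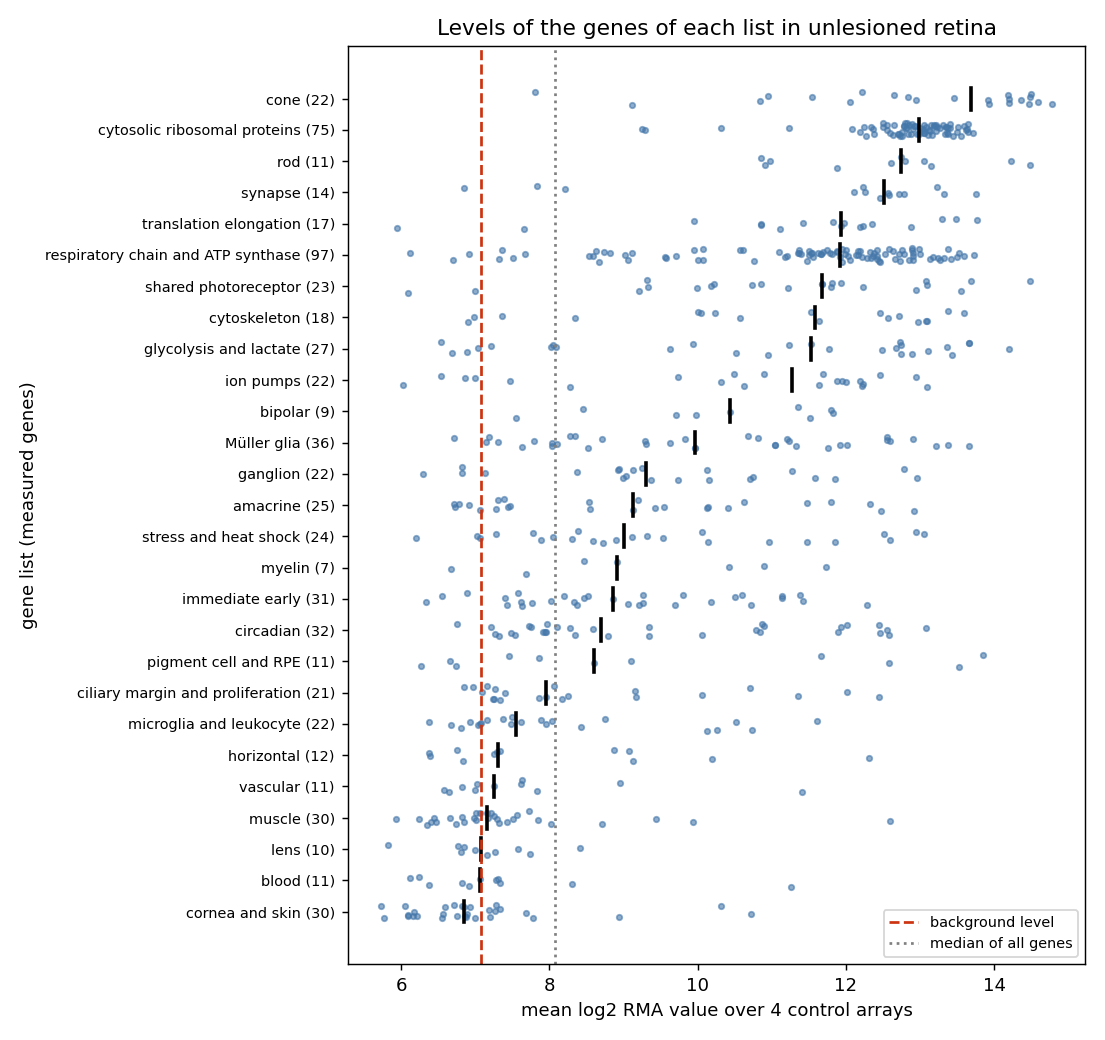
Each gene list in order of its median, with the mean RMA value (log2) over the 4 control arrays on the x axis; points are genes, ticks are list medians, and the lines mark the background level of 7.08 and the all-gene median of 8.08. The cone list is highest at 13.68, and the medians of the lens list (just under 7.08), the blood list at 7.06 and the cornea and skin list at 6.85 lie below the background level.

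The lists of inner retinal neurons had lower medians than the photoreceptor lists. Of the listed genes, 9 of 35 bipolar, 22 of 45 ganglion and 25 of 42 amacrine genes were measured. The medians depend on which genes were listed and measured, so their order is not read as an order of cell types. The bipolar list had a median of 10.44. Against 71.5% and 5% of all genes, 9 of its 9 genes were above background and 0 in the top 5%. For a list this short, 0 in the top 5% is near that share. Its brightest members were gnao1a, in mice the G protein alpha subunit of the ON bipolar cascade, at 11.82 ± 0.10, the gamma subunit gng13b at 11.81, the homeobox gene vsx1 at 11.52 and isl1a at 11.36. The dimmest was otx2a at 7.55.

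The ganglion list had a median of 9.30, with 19 of 22 genes above background and 2 in the top 5%. The amacrine list had one of 9.12, with 20 of 25 and 3. Over all genes the shares were 71.5% and 5%. Both lists had a few bright members and many dim ones. Among ganglion genes the intermediate filament inaa had 13.01, 12.96, 12.96 and 12.92, and the synuclein sncgb averaged 12.79, islr2 11.86 and inab 11.58. Among amacrine genes the glutamate decarboxylase gad1b, which makes GABA, had 12.95, 12.97, 12.88 and 12.90. The calcium-binding calretinins calb2b and calb2a averaged 12.48 and 12.33, and gad2 averaged 11.80.

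The horizontal cell list was the dimmest of the neuronal lists, at 7.31. Against 71.5% and 5% of all genes, 8 of its 12 genes were above background and 1 was in the top 5%. That gene was tfap2a, a transcription factor that amacrine cells also use, at 12.32 ± 0.05. It was followed by septin4a at 10.20, the connexin gja9a at 9.12 and prox1a at 9.08, so the list median does not describe its leading members. The synapse list, shared by all retinal neurons, had a median of 12.51 with 13 of 14 genes above background and 11 in the top 5%. Its leading gene snap25b, a core part of the vesicle fusion machinery, had 13.77, 13.71, 13.78 and 13.76.

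Müller glial genes ranged widely, from 6.71 to 13.67. Of 36 measured genes, 35 were above background and 8 were in the top 5%, against 71.5% and 5% of all genes. Their median was 9.97. The brain aldolase aldocb, which was also in the glycolysis list, led with 13.63, 13.64, 13.70 and 13.69. Next were the glutamine synthetase glula, which clears glutamate, with 13.42, 13.30, 13.39 and 13.38, and the lipid carrier apoeb with 13.26, 13.21, 13.18 and 13.23. The chaperone clusterin, clu, averaged 12.91. The dimmest member was sox9a at 6.71. The intermediate filament gfap, named here after its value was seen, averaged 9.31 ± 0.08, and so lay between the extremes of its list.

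The pigment cell list was split in its own way. Some of its retinoid genes were bright, with rgrb at 13.85, the retinoid isomerase rpe65a at 13.55, 13.51, 13.48 and 13.55, and the retinol transporter stra6 at 12.58. Its melanin gene dct averaged 11.66. Its median was 8.61, with 8 of 11 genes above background and 3 in the top 5%, against 71.5% and 5% of all genes. The tyrosinase gene tyr, the first enzyme of melanin synthesis, was named after its value was seen and averaged 6.66 ± 0.14, below the background level. Also below it were bco1 at 6.74, likewise named after its value was seen, and stra6l, the dimmest of the list, at 6.26. The bright pigment cell genes stood in tissue labelled whole retina, and how much pigment epithelium the samples held was not tested.

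Markers of cells from outside the neural retina were mostly at or near background. Over all genes, 71.5% were above background and 5% in the top 5%, the shares to set beside each list here. The lens list had a median of 7.08 with 5 of 10 genes above background, and its brightest member, the crystallin cryba4, averaged 8.41. The blood list had a median of 7.06 with 5 of 11 above background, of which only the alpha globin hbaa1 was well above it, with 11.21, 11.23, 11.32 and 11.26. The cornea and skin list was lowest, at 6.85 with 10 of 30 above background, although icn averaged 10.72 and kera 10.31. The muscle list stood at 7.16 with 16 of 30 above background. Its myoglobin gene, mb, had 12.61, 12.58, 12.58 and 12.60 and was in the top 5% of genes, while the next, eno3, averaged 9.94. The vascular list had a median of 7.25 with 6 of 11 above background and was led by aqp1a.1 at 11.41.

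The microglia and leukocyte list had a median of 7.55 with 15 of 22 genes above background and 0 in the top 5%. Over all genes these shares were 71.5% and 5%. Its brightest members were cd74a, the invariant chain of antigen presentation, at 11.61, aif1l at 10.74, ccl34b.1 at 10.51 and lgals3bp.1 at 10.25. Its members below background were spi1b and grna at 7.07, csf1ra at 7.03, ptprc at 6.92, marco at 6.80, slc7a7 at 6.67 and ctss1 at 6.38. The myelin list had a median of 8.92 with 6 of 7 above background, led by the myelin basic protein gene mbpa at 11.81, 11.74, 11.76 and 11.65. The ciliary margin and proliferation list had a median of 7.95, below the all-gene median of 8.08, and a lower quartile of 7.25, near background. Of its 21 genes, 19 were above background and 2 in the top 5%, against 71.5% and 5% of all genes. Its brightest members were tuba8l4 at 12.44, hmgb2a at 12.02 and the replication clamp pcna at 11.31, 11.33, 11.33 and 11.44. The dimmest was the replication helicase gene mcm6 at 6.85, below background.

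The lists of ordinary cell functions were as bright as many retinal ones. The cytosolic ribosomal proteins had a median of 12.99 with 75 of 75 genes above background and 71 in the top 5%. Over all genes these shares were 71.5% and 5%, here and for the lists that follow in this paragraph. The 4 brightest, rpl3, rps20, rps27a and rpl8, averaged between 13.63 and 13.72, and the dimmest was rpl7l1 at 9.25. The respiratory chain list had a median of 11.93 with 94 of 97 above background and 46 in the top 5%. COX1 was not in this list, which was formed by a pattern on symbols and also holds cytochrome b5 genes. The list was led by nuclear genes of ATP synthase and cytochrome c oxidase, atp5mc3b at 13.73, cox7c at 13.60, atp5f1b at 13.53 and cox6b2 at 13.51. Glycolysis had a median of 11.53 with 23 of 27 genes above background and 12 in the top 5%. The translation elongation list stood at 11.93, with 16 of 17 above background and 8 in the top 5%, and the ion pump list at 11.27, with 18 of 22 and 8. The cytoskeleton list had a median of 11.58 with 16 of 18 above background and 8 in the top 5%, led by the actin-binding thymosin tmsb4x with 13.56, 13.54, 13.64 and 13.65.

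The immediate early list had a median of 8.85 with 28 of 31 genes above background and 1 in the top 5%, the growth regulator btg1 at 12.29 ± 0.17. Over all genes these shares were 71.5% and 5%, here and for the circadian and stress lists. For the immediate early list, 1 of 31 in the top 5% is near the share of all genes. The circadian list had a median of 8.69 with 31 of 32 above background and 6 in the top 5%, led by bhlhe40 at 13.08, nr1d2b at 12.59, nfil3-6 at 12.56 and aanat2 at 12.46. The time of day of sampling is not stated in the labels. The stress list had a median of 9.0 with 21 of 24 above background and 4 in the top 5%, among them the chaperone hspa8 at 13.05.

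Paralog usage was examined over 662 pairs of genes whose symbols differ only by a final a or b. Such symbols often name paralogs, but the set was formed by symbol alone and also holds pairs such as elongin subunits that are not copies of 1 gene. The a member was brighter in 352 pairs and the b member in 310, and 630 pairs kept the direction on all 4 arrays. In 364 pairs (55.0%) the members were at least 1 log2 unit apart, in 158 (23.9%) at least 2 and in 31 (4.68%) at least 4, with a median of 1.12. Among 1192 pairs of probe sets of 1 gene, where no such difference between genes exists, the shares were 45.7%, 17.4% and 3.19% and the median 0.88. With the brighter member above background, the shares were 60.3%, 26.4% and 5.18% of 599 a/b pairs, against 54.9%, 21.1% and 3.88% of 980 pairs of probe sets of 1 gene, and the medians 1.26 and 1.12. The shares of the a/b pairs were higher at each of these 3 distances in both settings, by less than 10 percentage points. Both members were above background in 430 pairs, 1 in 169 and neither in 63. In 31 pairs both were in the top 5% of genes.

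**Figure D3:**
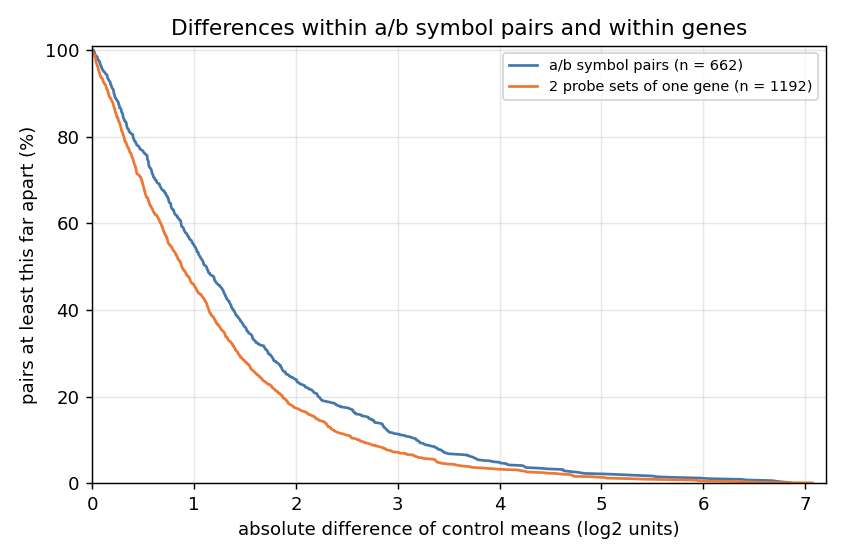
The share of pairs (y axis, %) at least as far apart as the absolute difference of control means on the x axis (log2 units), for 662 a/b symbol pairs and for 1192 pairs of probe sets of 1 gene. The a/b curve lies above the same-gene curve at 1, 2 and 4 log2 units, by less than 10 percentage points each time.

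The 10 pairs with the largest differences and a bright member each had 1 copy at a low level, which follows from how they were chosen. The largest difference was 6.85 among a/b pairs and 7.07 between 2 probe sets of 1 gene. Differences of this size therefore also occur without paralogs, and how much of them is paralog usage was not tested. In apolipoprotein E, apoea had 6.37 ± 0.10 and apoeb 13.22 ± 0.04. In brain aldolase, aldoca had 6.89 and aldocb 13.67, and in muscle aldolase aldoaa had 12.73 and aldoab 7.03. The glucose phosphate isomerase gpia had 13.36 and gpib 6.68. These pairs are of lipid transport and glycolysis, and in each the dim copy was below the background level.

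The other 6 were mid1ip1a at 6.25 and mid1ip1b at 12.97, guk1a at 6.09 and guk1b at 12.51, ckba at 8.12 and ckbb at 14.48, ndufa4a at 13.38 and ndufa4b at 7.32, azin1a at 7.12 and azin1b at 13.08, and selenot1a at 12.44 and selenot1b at 6.90. Of these dim copies, ckba, ndufa4b and azin1a were above the background level. The bright copy was a in 4 of the 10 pairs and b in 6.

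Families of glycolytic enzymes differed in how far their members lay apart. Aldolase aldocb was 0.94 ± 0.07 above aldoaa and over 6 above aldoab and aldoca. The lactate dehydrogenases ran from ldhba at 13.11 through ldhbb at 11.53 to ldha at 10.52, and the enolases from eno1a at 13.43 and eno1b at 12.89 to the muscle form eno3 at 9.94. The distances of aldocb over aldoaa and of eno1a over eno1b are about or below the median of 0.88 between 2 probe sets of 1 gene. Both are below the median of 1.12 among such pairs with the brighter probe set above background. Triosephosphate isomerase had tpi1a at 12.67 ± 0.07 and tpi1b at 12.75 ± 0.09 overlapping over the arrays. The glyceraldehyde phosphate dehydrogenase gene gapdhs had 14.27, 14.16, 14.21 and 14.19, and gapdh averaged 8.05 ± 0.12.

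Creatine kinases, which buffer ATP, divided into 2 bright and 4 dimmer genes. The cytosolic ckbb averaged 14.48 and the mitochondrial ckmt2a 13.82. The mitochondrial ckmt1 averaged 9.33, and the muscle forms ckmb and ckma 7.84 and 7.25. For the sodium pump, the alpha subunits atp1a3b at 12.23, atp1a1b at 12.01 and atp1a3a at 10.90 were bright, while atp1a1a.2, atp1a1a.4 and atp1a1a.3 were all below the background level. The beta subunits were led by atp1b2a at 13.09, whose other probe sets averaged 13.03, 10.46 and 9.96.

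Among transcription factors the otx family had the order crx 11.94, otx2b 10.44, otx5 9.21, otx2a 7.55 and otx1 7.01, and the order held on all arrays. The level of otx1 was below background and is only an upper bound. The rx genes ran from rx1 at 11.22 through rx2 at 10.18 to rx3 at 9.15. The eye field gene pax6a had 11.53, 11.43, 11.48 and 11.49, and pax6b 10.30, 10.25, 9.97 and 10.02, a difference of 1.35 ± 0.16.

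Among genes of the Müller list, glula exceeded glulb by 2.69 ± 0.12, with glulb at 10.68. That difference depends on the probe set read, since the other probe set of glulb averaged 5.97, below background. The glutamate transporter slc1a2b averaged 12.60 and slc1a3a 7.31, and the prostaglandin D synthase genes ptgdsb.2 and ptgdsb.1 averaged 11.75 and 8.70. The midkines, heparin-binding growth factors named in the title of the series, were both well above background: mdka averaged 11.98 and mdkb 11.10, and mdka was higher on all 4 arrays, by 0.87 ± 0.06. That is about the median of 0.88 between 2 probe sets of 1 gene. It is below the median of 1.12 among such pairs with the brighter probe set above background.

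The beta actins actb2 and actb1 averaged 13.38 and 12.57, and the elongation factors eef1a1l1, eef1a1a and eef1a1b averaged 13.78, 13.48 and 11.98. The disc rim proteins, which shape photoreceptor outer segments, ranged from rom1b at 12.74 to prph2a at 11.81, and rom1a and prph2a overlapped over the arrays. Of the calcium-binding parvalbumins, pvalb9 averaged 11.33 and pvalb6 9.43, and the other 7 lay between 6.72 and 8.45.

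**Figure D4:**
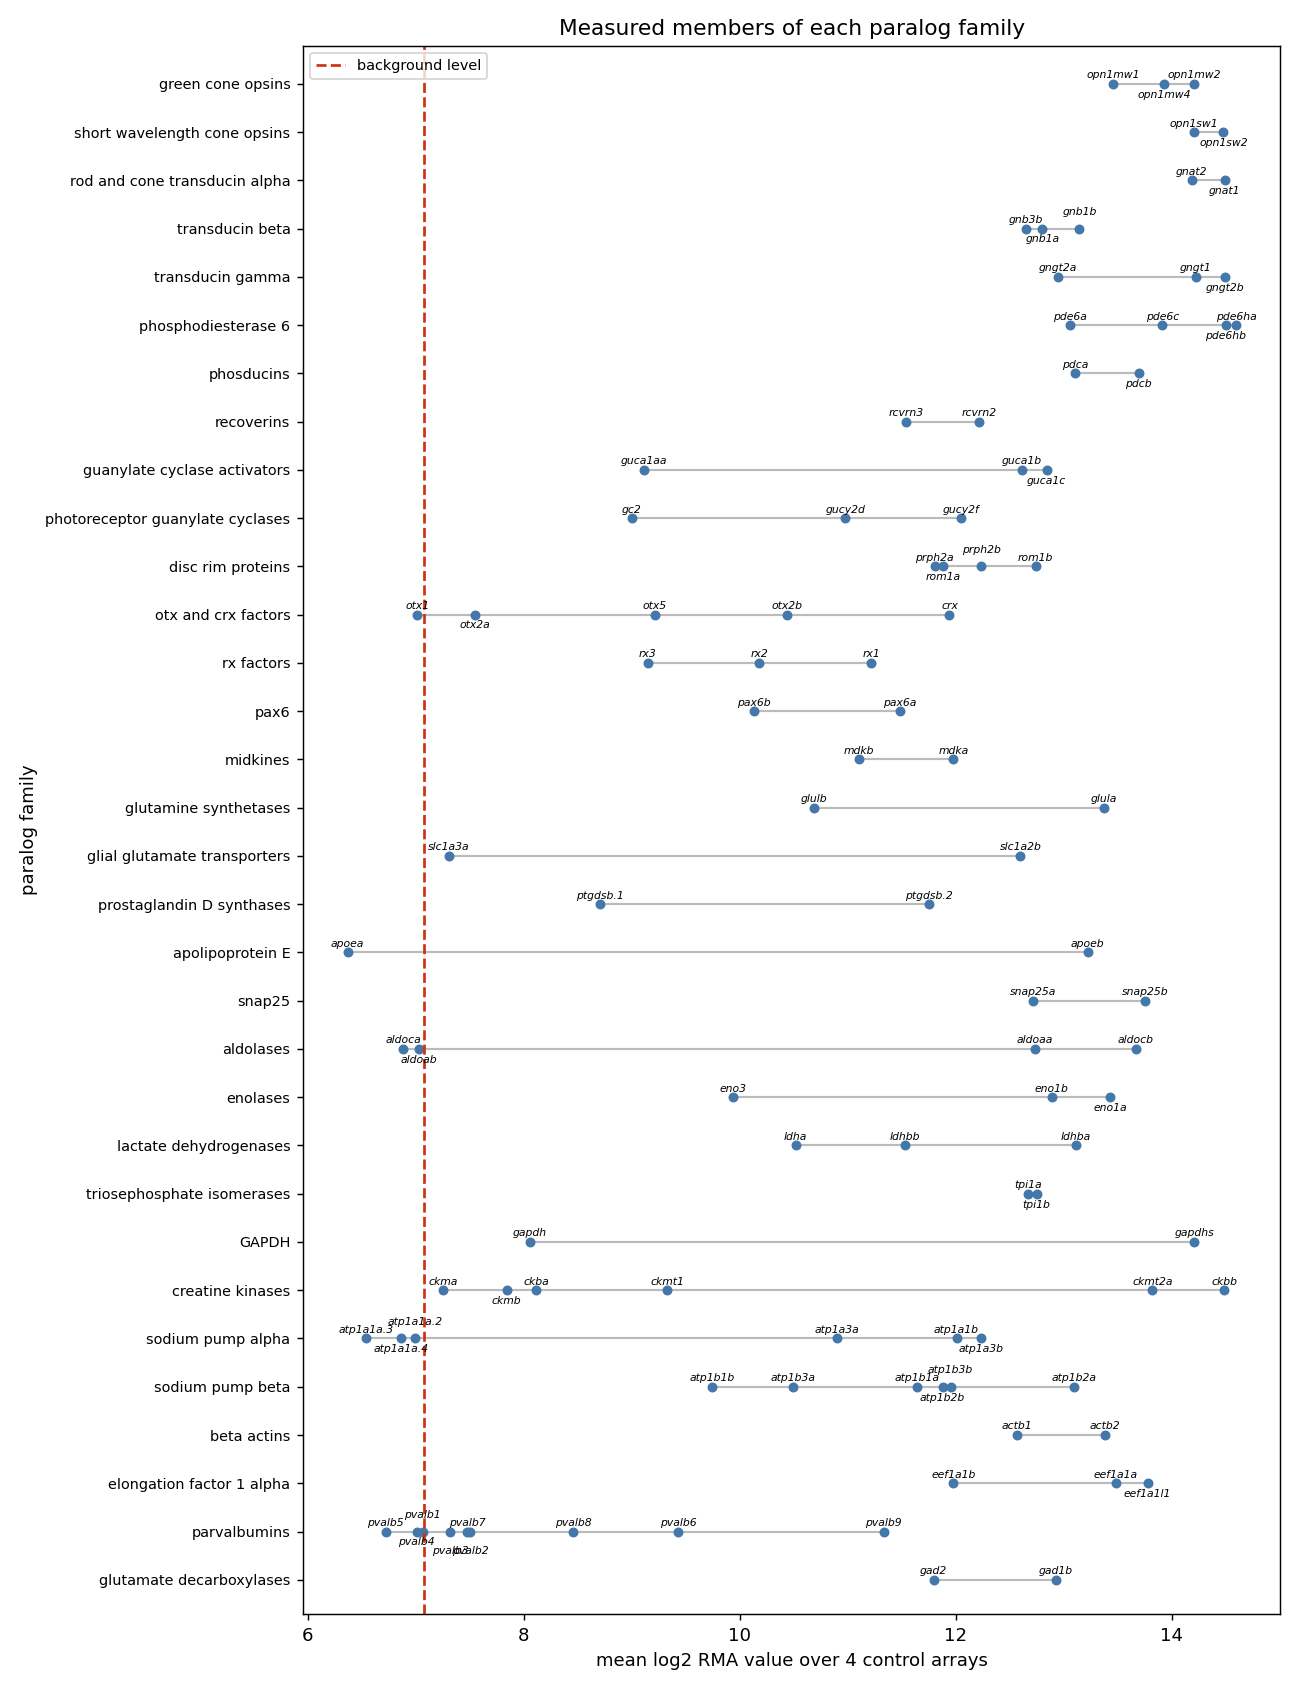
Each row is a paralog family with at least 2 measured members, and each point the mean RMA value (log2) of a member over the 4 control arrays, labelled with its symbol; the dashed line is the background level of 7.08. Cone opsins, transducins and phosphodiesterases all lie at the bright end, the lowest being gnb3b at 12.65. Some of these families are spread, such as transducin gamma from 12.94 to 14.49. Aldolases, creatine kinases and apolipoprotein E reach from near background to above 13.

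The spread between the 4 arrays was small. The median SD was 0.09 over all probe sets and 0.10 over those above background, of which 91.7% had an SD under 0.2. Among the lists, genes above background had a median SD of 0.05 for cone genes, 0.05 for ribosomal proteins and 0.10 for rod genes, against 0.09 over all genes above background. The proliferation and microglia lists had 0.13 each. A range of at least 0.5 over the arrays was reached by 2 of 21 proliferation genes, 3 of 22 microglia and leukocyte genes, 1 of 22 cone genes and 0 of 11 rod genes, against 3.81% of all genes. The SD also varied with signal level. Its median was 0.11 in decile 5 of the probe sets by mean and 0.07 in decile 10, the brightest. The lists were not matched for level, so these differences are not read as traits of the cell types.

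Much of the spread followed 1 pattern. A first component held 73.6% of the squared deviations from the probe set means, with weights of -0.64, -0.22, 0.72 and 0.14 on replicates 1 to 4. The deviations of the arrays varied with signal level: replicate 1 was low on dim probe sets and high on bright ones, and replicate 3 the reverse. In decile 4 of the probe sets by mean, replicate 1 lay at -0.07 and replicate 3 at 0.07 from the mean of the 4 arrays, and in decile 9 replicate 1 lay at 0.07 and replicate 3 at -0.07. Quantile normalization of the 4 arrays left 87.1% of the squared deviations. The cause of the pattern was not tested.

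**Figure D5:**
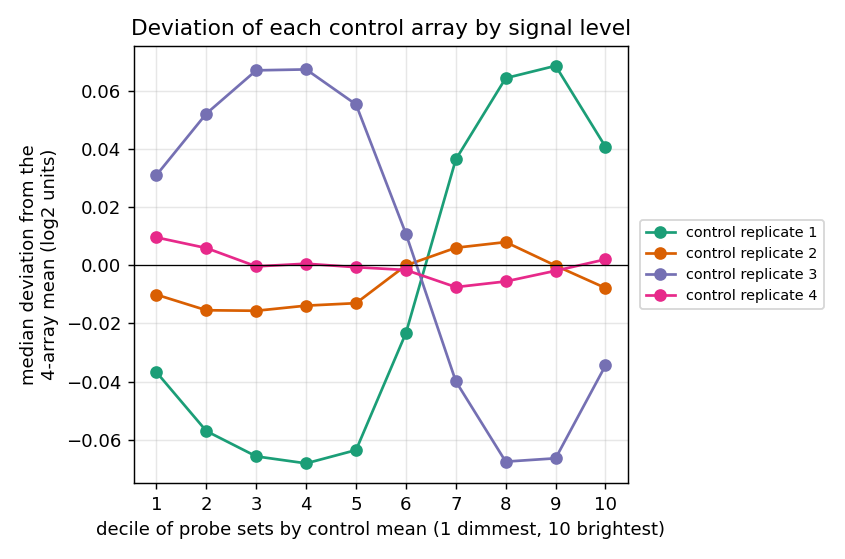
Median deviation of each control array from the mean of the 4 arrays (y axis, log2 units) for probe sets grouped in deciles from the dimmest (1) to the brightest (10) on the x axis, with 1 line per array. Replicates 1 and 3 mirror each other and cross between deciles 6 and 7, and replicates 2 and 4 stay near 0.

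The genes that varied most showed the same arrays apart. A range of at least 1 was found for 10 probe sets (0.0645%), all of them lowest on replicate 3 and highest on replicate 1 or 2, and without replicate 3 the number was 2, without replicate 1 it was 6. Among 475 probe sets with a range of at least 0.5 whose lowest array was above background, 309 were lowest and 142 highest on replicate 3, and 272 were highest and 136 lowest on replicate 1. That choice keeps brighter probe sets, on which replicate 3 was low and replicate 1 high. Of the 20 most variable named genes, 18 were higher on replicates 1 and 2 than on replicates 3 and 4, 2 were lower, and 16 were lowest on replicate 3. Among all probe sets above background, 31.9% were higher on both replicates 1 and 2 than on 3 and 4, and 20.4% were lower.

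The most variable named gene was stk35l, a protein kinase gene, with 10.45, 10.44, 9.22 and 9.73 and a range of 1.23. After quantile normalization its range was 1.16, and its other probe set had a range of 0.45. It was followed by gna11b, a G protein alpha subunit, and tnr, the extracellular matrix protein tenascin-R. The other probe set of gna11b had 7.38, 7.67, 7.83 and 7.48, a range of 0.45, and was highest on replicate 3. The variation of gna11b therefore depends on the probe set read. Among the microglia and leukocyte genes, grna.1, a progranulin-family gene, went the other way, with 7.50, 7.72, 8.47 and 7.88, and was highest on replicate 3.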

How the data were processed

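The values that the authors deposited are log2 RMA values, 1 for each probe set on each array; RMA is named in the submitters' processing notes. No source used here states its version or settings, and the base of the logarithm was read from the values, which lay between 5.48 and 14.89 in the control arrays. Groups came from the sample titles, and the 4 columns of the other group were not used. Of 15617 probe sets, 115 array controls were left out. The array annotation gave 1 symbol for 10795 of the remaining 15502, several for 135 and none for 4572, and the last 2 kinds were counted but not named. Symbols were checked against the RefSeq gene table through gene identifiers (10711 found, 1 updated).

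All values are means and SDs over 4 arrays, computed with pandas 2.3.3 and numpy 2.4.6 in Python 3.11.15. With 1 group there was no comparison and no test. The members, the 27 gene lists and the 40 paralog families were chosen with earlier results of these data known. Kinases and a binding protein whose symbols resemble ribosomal proteins were removed by name. The respiratory list, formed by a pattern on symbols, includes assembly factors and cytochrome b5 genes and leaves out COX1. The genes set to be named were the 30 brightest, the 4 brightest and 1 dimmest of each list, and the members of the families. Also set were the 10 a/b pairs farthest apart with a bright member, the 20 of widest range above background, and mdka and mdkb. Not all of them are given above, and for several lists the dimmest member is not. Those of the ganglion, amacrine, horizontal and synapse lists were cxcr4b at 6.29, neurod6b at 6.71, ompb at 6.37 and syn1 at 6.84, below the background level. Further genes were chosen after their values were seen: gfap, tyr, bco1, calm3b, nme2a, aplp2, ptmaa, ptmab, ppdpfb, ap2m1a and sh3gl2a. So were the microglia and leukocyte genes given as below background, apart from ctss1. Alternatives were leaving out each array, quantile normalization, median centring, other background rules, averaging the probe sets of a gene, and other summaries of a list. The number of arrays and the distance from background limit the precision.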

Additional observations from a re-analysis of the deposited data

Results flagged for a closer look

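In 17 of the 282 levels examined, 1 array stood apart from the other 3, by Dixon's ratio of its gap to the whole range at the 95% critical value. Chance alone gives about 1 in 20 groups of this size. Replicate 1 was the array apart for 8 of them, replicate 2 for 3, replicate 3 for 4 and replicate 4 for 2.

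On replicate 1, gngt2b stood at 14.56 with the others between 14.46 and 14.47, nr2e3 at 10.98 with the others between 10.81 and 10.83, and vsx1 at 11.74 with the others between 11.43 and 11.47. Likewise rx3 stood at 9.29 with the others at most at 9.12, ptgdsb.2 at 11.88 with the others at 11.71, and atp1b1a at 11.77 with the others at most at 11.60. Lower on that array were gja9a at 8.97 with the others from 9.16, and aldoab at 6.93 with the others from 7.06.

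Replicate 2 was the low one for atp6v0cb at 13.26 with the others from 13.33, otx2b at 10.35 with the others from 10.46, and mid1ip1b at 12.94 with the others from 12.98. Replicate 3 was high for the skeletal myosin myhz1.3 at 6.07 and the parvalbumin pvalb4 at 7.39, against at most 5.90 and 6.92 on the other arrays, and low for the ribosomal protein rpl8 at 13.58 and the proton pump subunit atp6v1e1b at 12.87, against at least 13.65 and 12.97. Replicate 4 was low for opn1lw1 at 14.28 with the others from 14.38, and high for tpm1 at 9.53 with the others at most at 9.42.

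The largest of these gaps was 0.47, for pvalb4, and 15 of the 17 were under 0.2 on the log2 scale. The means of pvalb4, aldoab and myhz1.3 lie below the background level of 7.08, and replicate 3, the high array for pvalb4 and myhz1.3, also had the highest mean of unspiked bacterial probe sets, 6.55; its part in these values was not tested.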

How the results depend on the processing

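No paired analysis was possible because the results describe 1 group and come from no test between groups. The count of probe sets with a range of at least 1 moved most: it was 10 with all arrays and between 2 and 10 when 1 array was left out (2 without replicate 3, 6 without replicate 1). The cone median stood 5.60 above that of all genes, or 5.44 when the probe sets of a gene were averaged, 4.46 with means in place of medians and 4.75 among genes above background, and between 5.58 and 5.61 without 1 array. The rod median stood 4.66 above, or 4.07 with means and 3.81 among genes above background, and between 4.62 and 4.70 without 1 array. The cone list stayed above the rod list, by 0.94, by 0.39 with means and by 0.75 with averaged probe sets. Against all genes 3 lists changed side: horizontal cells to 0.01 and circadian genes to -0.14 among genes above background, and proliferation genes to 0.11 with means. The background rule set the count of probe sets above it, 9808, against 13269 with the median of the bacterial probe sets and 9319 when every array had to pass. Averaging probe sets moved 42 of the 255 named genes by more than their SD, most of all hsp90ab1, by 3.29. Quantile normalization moved none of them by more than their SD. Leaving out 1 of 4 arrays cannot move a mean by more than its SD, and median centring leaves the mean of a gene unchanged. Those settings were therefore no check on the levels of these genes. Probe sets near the background level of 7.08 give only an upper bound on their transcript.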

Other observations

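Of the brightest 100 genes, 30 belonged to none of the lists, and the following were chosen after their values were seen. The chromatin and growth related prothymosin genes were bright in both copies, with ptmaa at 13.16 and ptmab at 13.56, as were the ppdpf genes, ppdpfa at 14.07 and ppdpfb at 13.49. Calmodulin calm3b, a calcium sensor, averaged 13.69, the nucleoside diphosphate kinase nme2a 13.69 and the amyloid precursor-like gene aplp2 13.58. The place of aplp2 rests on the brighter of its 2 probe sets, which were 4.23 apart. The clathrin adaptor ap2m1a averaged 13.25 and the endophilin sh3gl2a 13.37.

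The array's own GAPDH control probe sets, annotated to gapdhs, averaged 14.21 at the 3′ end, 14.36 in the middle and 14.16 at the 5′ end. These lay around the gapdhs probe set at 14.21, while gapdh averaged 8.05.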
